A study of Oryza sativa Japonica Group with 3 samples.

Results

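The LUX-MYC ChIP-seq list holds the places where chromatin precipitated with MYC-tagged LUX protein of rice gave more sequence tags than input DNA. Every line of the submitters' main LUX peak list was taken, and lines with the same chromosome, start and end were counted as 1 region. This gave 177 regions with 246 summits, out of 1001 regions in the main lists of the series, in which ELF3 holds 824. The submitters' second call of the same LUX library held 91 regions with 137 summits. The ChIP library came from japonica rice, with Nipponbare named in the growth protocol, that carried an OsLUX construct of its own promoter, UTRs and gDNA, ending in a 5xtag_c-MYC, and was made with an anti-MYC antibody. For ELF3, used here for side values alone, chromatin came from wild-type Nipponbare and a custom antibody. The input library, without antibody, came from wild-type Nipponbare. For each, a pool of 20 whole seedlings, 14 days old and grown at 28 °C in 10 h light and 14 h dark, was frozen at zeitgeber time 14, and 3 g of tissue was fixed. The labels do not say how many independent lines carry the construct, nor whether the untagged LUX gene is still active in them. An input or a mock precipitation of the tagged line was not analysed here.

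LUX is a MYB-type transcription factor of the plant circadian clock. With the scaffold protein ELF3 and the small protein ELF4 it forms the evening complex, in which LUX is the member that recognises DNA. The complex acts from dusk into the night as a repressor of other clock genes and, in rice, of genes that delay flowering.

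Each side consisted of 1 library. There is no replicate check, no test was possible, and all values describe these libraries. After duplicates were removed, 20173598 LUX tags and 14797701 input tags were left. A tag was extended to the estimated fragment length, 122 bp in the main call and 76 bp in the second call, and the tags at a summit are the extended tags that cover it. With 1 tag kept per position and strand, at most 244 tags could cover a summit in the main call, and the highest number seen was 87. Tag numbers are given with exact 95% Poisson intervals, shares with exact 95% Clopper-Pearson intervals, and neither covers more than counting error. Positions are on the build IRGSP-1.0. No genome or annotation of that build was used here, so genes and sequence at the regions are not described.

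LUX enrichment came in short, low peaks. The strongest summit of a region is here the one of highest fold enrichment, which is the caller's ratio of scaled LUX tags plus 1 to input background plus 1. At the strongest summit of a region, 33 to 87 LUX tags were counted, with a median of 43. Regions were 122 to 1751 bp wide with a median of 189 bp, and 10 of them (5.65%) had the narrowest width the caller allowed. The strongest summit lay a median of 32.5 bp from the middle of its region. A region had a single summit in 130 cases, and 47 regions (26.6%, 20.2 to 33.7%) had several.

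The region at chr6:20110047-20110636 had 80 LUX tags at its strongest summit (95% interval 63.4 to 99.6), and the input had 83 tags in the 1 kb around it. Its fold enrichment was 5.36, the highest of the list. On chromosome 10, the region from 4964257 to 4964569 had 62 LUX tags (47.5 to 79.5), on chromosome 1 that from 19823093 to 19823249 had 61 (46.7 to 78.4) and on chromosome 12 that from 4639248 to 4639527 had 59 (44.9 to 76.1). In these 3 regions the local input did not exceed the genome-wide background. Among the 10 regions of highest fold enrichment, those with 65 LUX tags (50.2 to 82.8) lay at chr6:13890844-13891174, at chr8:9912799-9912972 and at chr9:13469564-13469944. Beside them the input had 80 tags per 1 kb, 10 tags per fragment length and 85 tags per 1 kb, in the same order. These 10 were completed by chr6:13889775-13890329 and chr11:7659489-7659665, both with 56 tags (42.3 to 72.7), and chr7:6318279-6318698 with 55 tags (41.4 to 71.6). The intervals of the 10 overlap one another. The region on chromosome 11 was the only one of the 10 that overlapped an ELF3 region. At the other end, 5 regions had 33 tags, with −log10 q values of 1.33 to 1.52, just inside the caller's q threshold of 0.05, and the second call found 0 of them.

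Spacing and tags of summits were described in the 47 regions that had several. The spacing of neighbouring summits within a region ran from 12 to 390 bp with a median of 170 bp (69 spacings), and 36 of the 69 (52.2%) were between 100 and 200 bp. In 16 of the 69 the summits were closer than the fragment length, so that single tags can cover both. In the second call, with its fragment length of 76 bp, 46 spacings ran from 19 to 276 bp with a median of 122.5 bp, 31 of them (67.4%) between 100 and 200 bp. The ELF3 list, with a fragment length of 202 bp, had 27 of 480 spacings (5.63%) in that range and a median of 371.5 bp. The part of the fragment length in this was not tested. The summit with the fewest tags had a median of 88.1% of the tags of the highest one. No summit of these regions had fewer than 33 tags (22.7 to 46.3). For a highest summit of 60 tags (45.8 to 77.2) or fewer, overlap with the lowest was thus fixed in advance. Such an overlap does not show that heights are alike. In 46 of the 47 regions the counting intervals of the fewest and the most tags overlapped. The exception was the strongest region, on chromosome 6, with 80 tags (63.4 to 99.6) at 20110264 and 47 tags (34.5 to 62.5) at 20110573, 309 bp further on. Its outer summit had a fold enrichment of 3.09.

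Width went with the number of summits. Regions of 1 summit had a median width of 165 bp, those of 2 summits 360 bp and those of 3 summits 565.5 bp. The widest region, at chr3:6755440-6757190, had 7 summits. Its tags were, from left to right, 35, 44, 50, 47, 53, 46 and 49, so that none stood out and the lowest was at the left edge. The next in width lay at chr12:25666920-25667764 with 845 bp and 4 summits of 53, 63, 45 and 43 tags. Then came chr12:1767867-1768678 with 812 bp, chr2:16350480-16351240 with 761 bp and chr11:11958550-11959306 with 757 bp. Regions of the second call overlapped all 5 of these wide regions by at least 1 bp. It had 3 regions within the widest and 2 within that of 845 bp. Those of 812, 761 and 757 bp were matched by 1 region each, of 140, 544 and 523 bp.

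Neighbouring regions were either close or far apart. Of the 165 distances between neighbours on a chromosome, 47 were of 80 to 1461 bases and 118 were of 52090 bases or more, with a median of 1.48 Mb. Distances between 5 and 50 kb made up 0 of the 165 (0 to 2.21%). In the ELF3 list, called with a fragment length of 202 bp, 62 of 812 distances (7.64%, 5.90 to 9.68%) fell in that range. That list is also denser, with 824 regions and a median of 0.356 Mb between neighbours over 5 kb apart. The part of list density in this was not tested. The lower limit is set by the caller, which joins enriched stretches up to 75 bp apart. Regions were joined to a locus where 5 kb or less lay between them. In the following, regions that share a locus are called clustered and the others single.

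**Figure D1:**
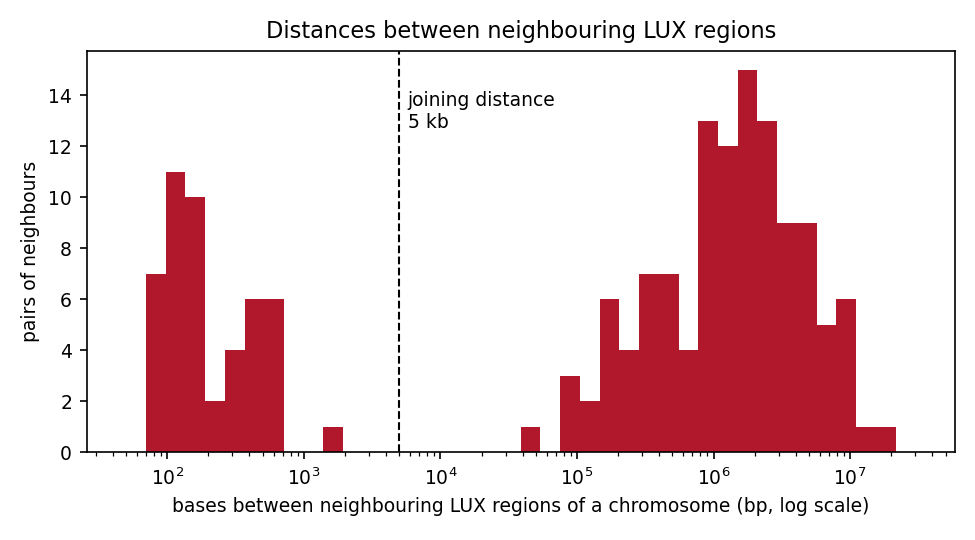
Number of neighbouring pairs of LUX regions (vertical axis) by the bases between them (horizontal axis, log scale). The dashed line marks the joining distance of 5 kb, and 47 pairs lie left of it at up to 1461 bases while 118 lie right of it from 52090 bases on.

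The 177 regions formed 130 loci, of which 102 held 1 region and 28 held several. There were 15 loci of 2 regions, 8 of 3, 4 of 4 and 1 of 5. The 28 clustered loci held 75 regions (42.4% of all), spanned 494 to 3412 bp with a median of 1056 bp, and regions covered a median of 69.5% of the span. Facing summits of neighbouring regions in a locus were 219 to 1746 bp apart with a median of 429 bp. The closest lay on chromosome 9 in the locus from 13469333 to 13470384, and the furthest on chromosome 12 between the regions starting at 8498544 and 8500456.

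The largest locus, at chr12:1767867-1771278, held 5 regions with 12 summits. From left to right the summits had 44, 35, 35, 39 and 37 tags in the region at the left end, then 40, 47 and 50, then 54, then 43 and 39, and 45 tags in the region at the right end. LUX tags were highest in the middle of the locus, and the input per 1 kb was highest at the same summit, with 94 tags at 1769502. The second call found the leftmost 2 of the 5 regions.

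The loci of 4 regions differed in how tags were spread. At chr10:8838389-8840377, the summits had 48, 41, 53, 59 and 40 tags. The summit of 59 tags stood over 14 input tags per fragment length and the other 4 over the genome-wide background, so that the highest tag number did not give the highest fold enrichment there. At chr8:9910994-9912972, the strongest summits of the 4 regions had 38, 36, 56 and 65 tags, higher in the right-hand pair. The loci of 4 regions at chr6:16221863-16223503 and at chr2:19044563-19046536 had 60 and 51 tags at the strongest summit, and 2 and 1 of their regions were found in both calls.

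The remaining loci of 3 regions lay at chr1:19822047-19823249, chr6:13889775-13891553, chr8:13068723-13069949, chr9:13469333-13470384, chr10:4964257-4966073, chr10:8038457-8039516, chr11:13519339-13521221 and chr12:4638551-4639527. They spanned 977 to 1883 bp. All 3 regions were found in both calls in 4 of these 8 loci, namely those on chromosomes 8 and 11 and both on chromosome 10.

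**Figure D2:**
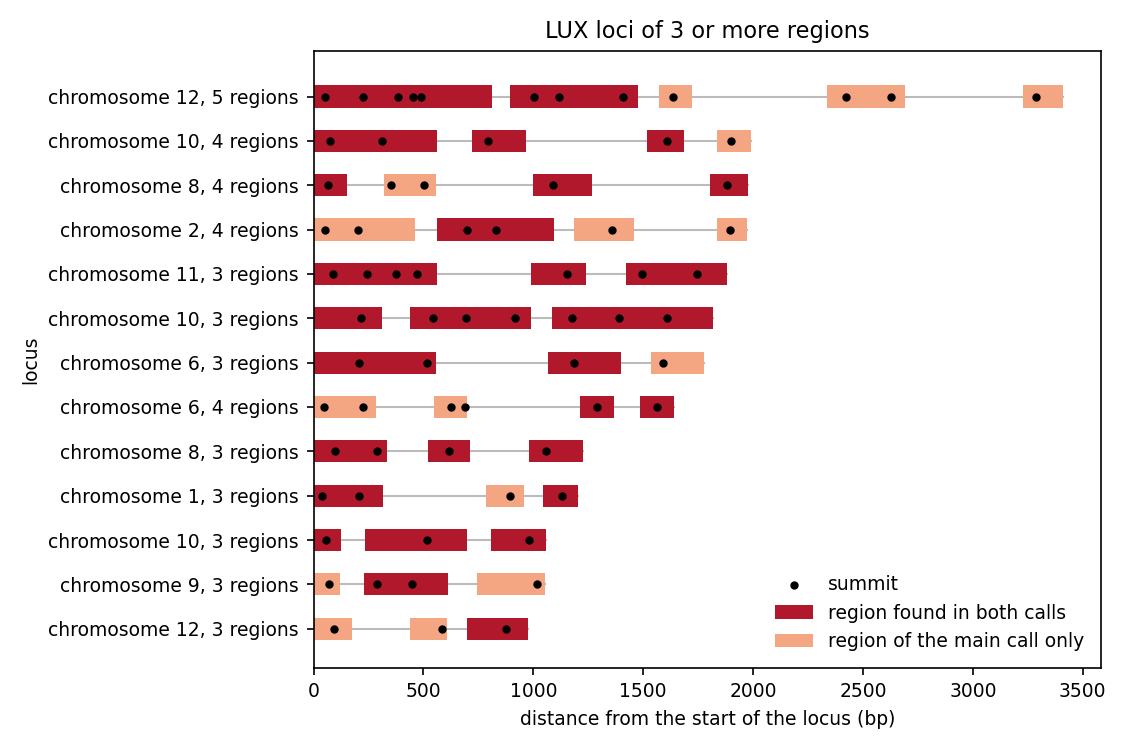
The 13 LUX loci of 3 or more regions, ordered by span, with the distance from the start of the locus in bp on the horizontal axis. Bars are regions (dark where found in both calls, light where found in the main call only), dots are summits, and the longest locus has 5 regions and 12 summits over 3412 bp.

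Clustered regions had higher median tags, enrichment and width than single ones in the main call. At the strongest summit, clustered regions had 33 to 87 tags with a median of 51 (n = 75), and single regions had 33 to 80 tags with a median of 39.5 (n = 102). The ranges overlap almost wholly. The median fold enrichment was 3.32 in clustered and 2.94 in single regions, and the median width was 256 bp in clustered and 168.5 bp in single regions. Several summits were resolved in 30 of 75 clustered regions (40.0%, 28.9 to 52.0%) and in 17 of 102 single regions (16.7%, 10.0 to 25.3%). Of the 10 regions of highest enrichment, 7 were clustered. An ELF3 region overlapped 15 of all 177 LUX regions (8.47%, 4.82 to 13.6%). By kind, it was 0 of 75 clustered regions (0 to 4.80%) and 15 of 102 single regions (14.7%, 8.47 to 23.1%). The part of chromosome position in this split was not tested. Without the 15 overlapping regions, the median of the single regions was 39 tags. With the second call's own regions and loci, the difference in median tags between clustered and single regions was 2, against 11.5 in the main call. Regions of 1 locus share their neighbourhood and are not independent of each other.

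The input background behind each fold enrichment could be read back from the list. The caller compares the LUX tags with the highest of the input in a window of the fragment length, the input in 1 kb, the input in 10 kb and a genome-wide mean. Each recovered background was either the genome-wide value or a whole number of input tags in one of these windows, without exception among the 246 summits. The genome-wide value, 8.60 scaled tags, decided 91 summits, the fragment window 102, the 1 kb window 53 and the 10 kb window 0. By region, it was the genome-wide value in 73 of 177 regions (41.2%, 33.9 to 48.9%), the fragment window in 64 (36.2%) and 1 kb in 40 (22.6%).

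In the 73 regions with the genome-wide background, the strongest summit had 33 to 62 LUX tags with a median of 41. The input at that summit was at most 8 tags in the fragment window and at most 70 in 1 kb. In the 64 regions set by the fragment window, LUX had 33 to 87 tags with a median of 48.5, over 9 to 28 input tags with a median of 10.5. In the 40 regions set by 1 kb, LUX had 33 to 80 tags with a median of 42, and the input had 71 to 116 tags in the 1 kb with a median of 77. For scale, spread evenly over the 367.6 Mb spanned by the peaks, the input would have 4.91 tags per fragment window and 40.3 per 1 kb. The regions whose background was local lie above these means by the way they are chosen, since their input had to exceed the genome-wide value. The local input was below the genome-wide value, which then served as background, in 25 of 75 clustered regions (33.3%, 22.9 to 45.2%) and in 48 of 102 single regions (47.1%, 37.1 to 57.2%). Among regions with that background alone, clustered ones had a median of 45 LUX tags (n = 25) and single ones 39 (n = 48).

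Scaled to the input's depth, LUX tags at the strongest summit were 1.99 to 5.80 times the background with a median of 3.29. The lowest ratio belonged to the region with the most input, at chr10:8038692-8039153, which had 76 LUX tags over 28 input tags per fragment window, 5.70 times the mean over the span. Its neighbour from 8039265 to 8039516 had the most LUX tags of the list, 87 (69.7 to 107.3), over 21 input tags, and the region to its left, from 8038457 to 8038582, had 55 LUX tags beside 116 input tags in 1 kb. LUX and input were thus both high throughout this locus, and its fold enrichments were 2.73, 1.96 and 2.95 from left to right. High input was also found at chr12:8500456-8500759, with 62 LUX tags over 18 input tags, at chr8:12887702-12887915, with 54 over 16, and at chr6:16222413-16222561, with 50 over 16. Of these 5 regions of highest background, 4 were clustered.

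**Figure D3:**
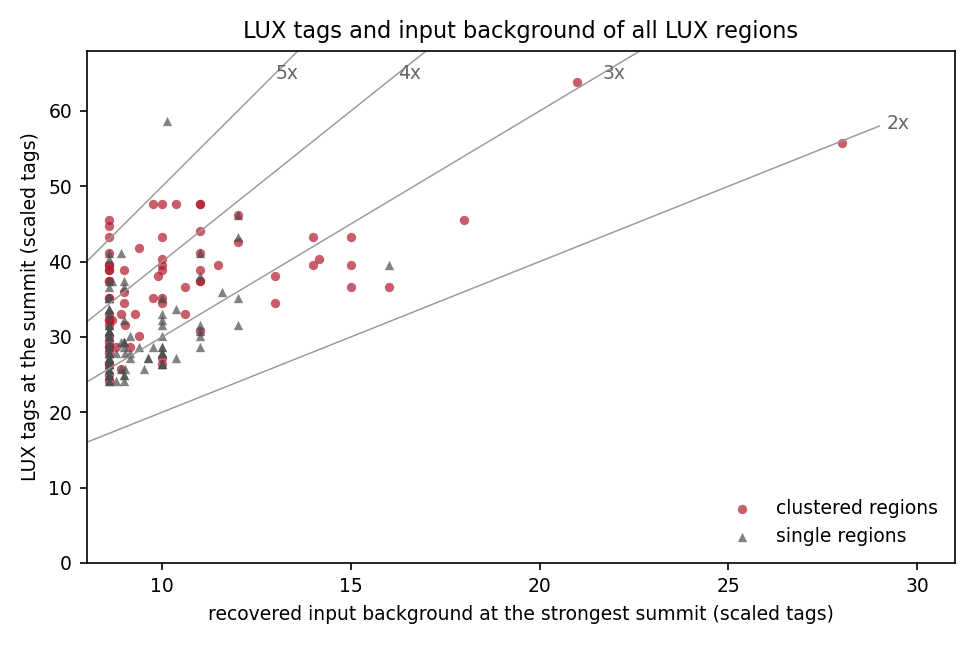
LUX tags at the strongest summit, scaled to the input's depth (vertical axis), against the recovered input background in scaled tags (horizontal axis) for 177 regions, with clustered regions as circles and single regions as triangles. Grey lines mark 2 to 5 times the background; the regions furthest right are those of the chromosome 10 locus, at 21 and 28 input tags.

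The second call used the same reads, so the share found again describes the calling and is no replicate check. Of the 177 main regions, 72 (40.7%, 33.4 to 48.3%) were found again. Regions found in both calls had 35 to 87 tags in the main call with a median of 53, and those of the main call only had 33 to 60 tags with a median of 39. Median main-call widths were 315 bp for regions found in both calls and 161 bp for those of the main call only. The share found again was higher at a higher −log10 q of the main call. It was 34 of 35 (97.1%, 85.1 to 99.9%) at a −log10 q of 7 or more, 17 of 29 between 5 and 7, 14 of 43 between 3 and 5, and 7 of 70 (10.0%, 4.12 to 19.5%) under 3. The missing region of 7 or more lay at chr6:16221863-16222148, with 60 tags and a −log10 q of 8.46. The second call placed a region from 16222329 to 16222404 in the gap to its right-hand neighbour.

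A higher share of clustered than of single regions was found again, with 49 of 75 (65.3%, 53.5 to 76.0%) and 23 of 102 (22.5%, 14.9 to 31.9%) found in both calls. By locus, at least 1 region was found again in 26 of 28 clustered loci (92.9%, 76.5 to 99.1%) and in 23 of 102 single ones, where a clustered locus has several regions that can be found and a single one has 1. All regions were found again in 11 of 28 clustered loci (39.3%, 21.5 to 59.4%). In all 3 classes of −log10 q under 5, and in that from 5 to 7, the share was higher for clustered regions, as the plot of regions found again shows. At a −log10 q of 7 or more it was 23 of 24 clustered and 11 of 11 single regions. The difference in this share was 6.82 percentage points at a −log10 q of at least 5 and 29.7 under 3, against 42.8 over all regions. The 2 clustered loci with no region in both calls were at chr5:13712091-13712622 and at chr8:11610151-11610805.

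**Figure D4:**
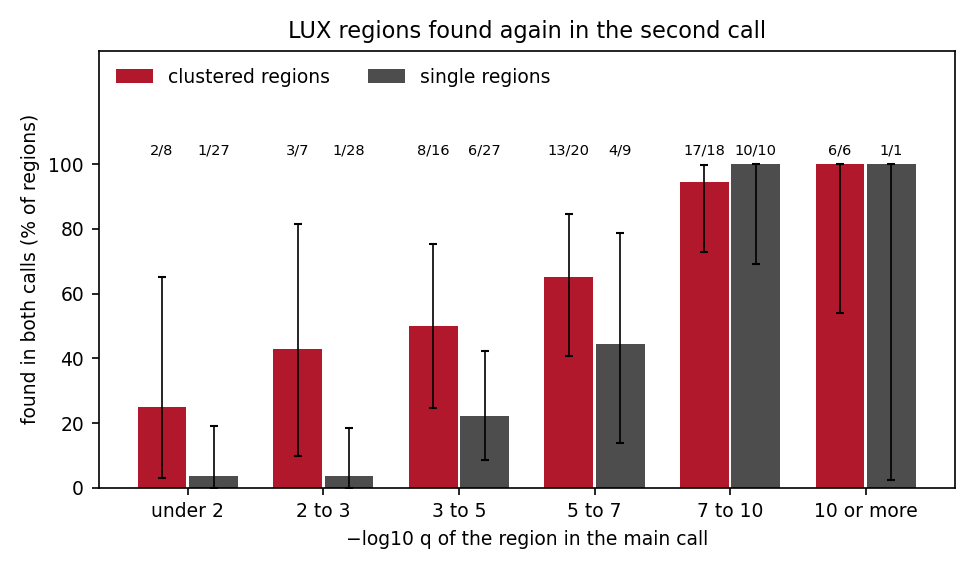
Share of main-call LUX regions found in both calls, in percent, by the −log10 q of the region in the main call, for clustered and single regions, with counts above the bars and exact 95% Clopper-Pearson intervals. Both shares are near 100% from a −log10 q of 7 on, with 34 of 35 regions found again.

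With its shorter extension, the second call had fewer tags and narrower regions. Over the 72 shared regions, a summit of the second call kept a median of 67.0% of the main call's tags (44.1 to 98.0%), and the median width was 162.5 bp in the second call and 315 bp in the main call. The median background was 5.55 scaled tags in the second call and 9.58 in the main call. The fold enrichment was higher in the second call in 50 of the 72 regions. The strongest summits of the calls lay 2 to 681 bp apart with a median of 34.5 bp, within 50 bp in 47 of the 72 and over 200 bp in 8. The largest shift was in the wide region at chr12:1767867-1768678, whose 5 summits had 35 to 44 tags in the main call.

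Among the 10 strongest regions, all were found in both calls but their order was not kept. The strongest, on chromosome 6, had a fold enrichment of 5.72 in the second call and 5.36 in the main call, and was number 2 in the second call. The region at chr11:7659489-7659665 had a fold enrichment of 3.06 in the second call and 4.38 in the main call, and was number 81 of 91 and number 8 of 177. There the background was 7 input tags per fragment window in the second call, above that call's genome-wide value of 5.36. The region at chr8:9912799-9912972 was number 52 in the second call and number 6 in the main call.

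In the main call, clustered loci were rare in the far part of the chromosomes, and single regions were not. Position was counted in percent of the span from the start of the chromosome to its furthest peak in any of the 3 lists used. Clustered loci lay between 6.60 and 63.0% of the span, and in 5 equal parts of it, from left to right, they numbered 5, 9, 13, 1 and 0. Single regions lay between 0.22 and 99.9%, and numbered 17, 25, 17, 19 and 24 in the same parts. Past 60% of the span there were 1 of 28 clustered loci (3.57%, 0.09 to 18.3%) and 43 of 102 single regions (42.2%, 32.4 to 52.3%). The 60% mark was chosen after the positions had been seen. In the second call it was 2 of 21 clustered loci (9.52%, 1.17 to 30.4%) and 9 of 33 single regions (27.3%, 13.3 to 45.5%). These intervals overlap. ELF3 loci of several regions lay past 60% in 100 of 165 cases (60.6%, 52.7 to 68.1%). For all ELF3 loci it was 282 of 502 (56.2%, 51.7 to 60.6%). The exception among the clustered LUX loci of the main call was that at chr9:13469333-13470384, at 63.0%, where the second call had 1 region. The 2 clustered loci of the second call past 60% lay at chr8:18167939-18168194 and chr12:25666926-25667439, at 64.7 and 95.8%. The main call held each of these as 1 region, with 2 and 4 summits, so which far loci count as clustered depends on the call. The furthest clustered locus towards a chromosome start was the one of 5 regions on chromosome 12.

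The 3 regions nearest to an end of the span had fewer tags than the median of 43. The region at chr6:30992216-30992401 lay 0.0409 Mb from the right end of the span and had 33 tags. That end is the furthest peak, since chromosome lengths were not used, so its distance from the chromosome end is not known. It was followed by chr10:50688-50809 and chr2:114150-114282, with 38 tags each. The second call found none of these 3, which had −log10 q values of 1.49, 2.41 and 2.71. Of all main regions with a −log10 q under 3, it found 7 of 70. Regions found in both calls lay a median of 10.5 Mb from the nearer end of the span, and those of the main call only 7.29 Mb.

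**Figure D5:**
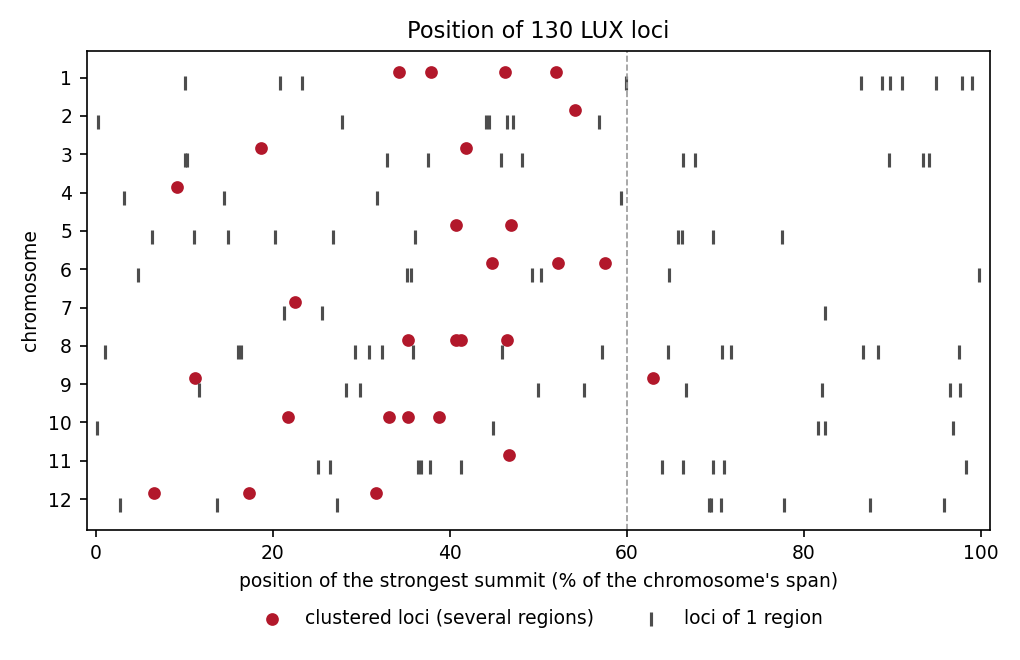
Position of the strongest summit of each of 130 LUX loci, in percent of the chromosome's span (horizontal axis), for the 12 chromosomes (vertical axis). Circles are the 28 clustered loci and bars the 102 loci of 1 region; right of the dashed line at 60% there is 1 circle.

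Every chromosome held LUX regions. Chromosome 8 held the most, with 26 regions in 19 loci, and chromosome 7 the fewest, with 5 regions in 4 loci. Chromosome 10 had the highest share of clustered regions, 12 of 17 (70.6%), and chromosome 11 the lowest, 3 of 14 (21.4%). Chromosome 10 also had the highest share found in both calls, 11 of 17 (64.7%), and chromosome 9 the lowest, 2 of 14 (14.3%). Each of the 12 chromosomes had at least 1 clustered locus, and chromosomes 1, 8 and 10 had 4 each. Numbers per chromosome are small, and differences between chromosomes were not tested.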

How the data were processed

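Reads were processed by the submitters. BWA, MACS2, deepTools and the build IRGSP-1.0 are named, without roles, per the submitters' processing notes, and no read filter is stated in these sources. Per the file headers, MACS 2.2.7.1 compared LUX with the input, splitting regions into summits, at a q-value threshold of 0.05, an effective genome size of 210 Mb and 1 tag kept per position. To build its fragment model, the main call took sites of at least 2-fold enrichment and the second call of at least 5-fold. Duplicate rates were 14% for LUX and 7% for the input, per the file headers. The deposited pileup is a coverage signal, scaled by 0.734 for LUX. The deposited fold enrichment is a ratio, (pileup + 1) over (background + 1). Significance was deposited as −log10 values of p and of q, which are the caller's.

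From these, tags were recovered as pileup over the scale factor, whole to within 0.01, and the background from pileup and fold enrichment. The −log10 p recomputed from both differed from the deposited one by at most 8.21e-05. A background was called genome-wide within 0.01 scaled tags, a fragment window count whole within 0.001 and a 1 kb count whole within 0.01. On simulated data, 1000 of 1000 summits got their tags and window back for the main LUX call. These were built with the same formulas and windows, so this checks the arithmetic and rounding only. Regions were represented by the summit of highest fold enrichment, joined within 5 kb and matched between calls by 1 bp. Named were the 10 strongest regions, the 5 of highest background, the 5 widest, the closest and the furthest neighbours, the 5 strongest of the second call only and all loci of 3 or more. The effective genome size is below the span of the peaks, 367.6 Mb, which raises the genome-wide background and lowers fold enrichments there. Members and lists were chosen with earlier results of these data known. Computations ran in Python 3.11.15 with scipy 1.17.1, numpy 2.4.6 and pandas 2.3.3, and plots in matplotlib 3.10.9.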

Additional observations from a re-analysis of the deposited data

Results flagged for a closer look

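The second call had 10 LUX regions without a counterpart in the main list, a signal outside the main measurement. They had 26 to 39 tags at the summit, fold enrichments of 2.88 to 4.31 and 1 summit each. Of the 10, 5 lay within 5 kb of a main region, at 8 to 809 bases, and so belong to loci of the main list. The other five lay 64335 bases or more from any main region. The strongest 5 were at chr7:5276060-5276149 with 4.31-fold enrichment and 36 tags, chr5:18303515-18303609 with 4.23-fold and 39 tags, chr8:11437415-11437506 with 4.20-fold and 35 tags, chr4:3273283-3273358 with 3.85-fold and 32 tags, and chr1:16231461-16231581 with 3.52-fold and 37 tags.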

How the results depend on the processing

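With 1 library a side no replicate could be left out and no paired analysis was possible because each group holds a single sample. Of the 26 values under other settings, 17 stayed within the rank interval of a median, or within 1.5 times for a count or number per Mb. The second call moved these values: 91 regions, 54 loci, 38 regions at the genome-wide background and a median of 36 tags. The highest number of regions per Mb on a chromosome was 0.571 there. This call also moved the median summit spacing within a region to 122.5 bp and the median ratio to background to 4.24. Its shorter extension lowers tags by construction, and the cause of the other shifts was not tested. Counts were compared as such, although the second list is shorter. As a share, regions at the genome-wide background were 41.8% in the second call and 41.2% in the main call. Regions with a neighbour within 5 kb, counted among the values that stayed, were 58 of 91 (63.7%) in the second call and 75 of 177 (42.4%) in the main call. The remaining moved values were main-call counts: a −log10 q of at least 3 left 107 regions, and of at least 5 left 64. Of 12 alternatives added after seeing the data, 7 kept the contrast of clustered and single regions within a tolerance. That tolerance was taken from the interval of the clustered group alone, so it leaves out the spread of the single group. The difference in persistence was 6.82 percentage points at a −log10 q of 5 or more and 29.7 under 3, against 42.8 over all regions. The difference in the share of loci past 60% of the span was −17.7 percentage points in the second call, against −38.6. The difference in median tags was 2 in the second call and 6 among regions at the genome-wide background, against 11.5. Gene context, motifs and reference chromosome lengths were not run, for want of a genome of the build. Depth limits the order of regions, whose intervals overlap.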

Other observations

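The file headers list the fragment lengths that the caller's strand model offered for each call. For LUX they were 122 and 598 bp in the main call and 76, 569 and 598 bp in the second call, and for ELF3 202 bp alone in its main call. The shortest was used for LUX each time, and in the second call it is close to the tag size of 75 bp.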
